A study of Sus scrofa with 12 samples.

Results

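The spliced antisense transcripts of the loin are assembled transcripts with at least 2 exons that lie across annotated exons of a gene on the opposite strand. They were taken from the transcript assemblies of 12 Longissimus dorsi libraries. A transcript was kept when it was on a chromosome, shared exon bases with annotated Sscrofa11.1 genes of the other strand only, and did not lie wholly inside 1 annotated intron. Transcripts with the same chain of introns were merged over the libraries. A chain entered when at least 1 of its transcripts met this rule. All transcripts with that chain then counted for its level and its number of libraries. For 23 chains the rule was not met in every library that had the chain. This gave 301 intron chains at 190 loci, out of 87278 spliced chains of all kinds. The main partner of a chain, the sense gene with which it shares most exon bases, names it throughout, and there were 189 main partner genes.

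The libraries came from castrated male pigs of a closed purebred Iberian line, 1 library per animal, fattened outdoors on acorns and grass. The Tough group (n = 6) and the Tender group (n = 6) were chosen for high and low breeding values, respectively, for shear force, the force needed to cut the meat. The paper's Tender group held 1 further animal, sequenced in an earlier study, which is not among these libraries. Shear force was 7.32 to 10.63 kg/cm2 in the Tough loins and 2.18 to 3.43 kg/cm2 in the Tender loins. RNA was taken from pieces of loin muscle, so a smaller number of cells of a type and less RNA per cell cannot be told apart. Skeletal muscle markers were high, with *MYLPF* at 5615 to 14432 FPKM and *ACTN3* at 1030 to 2378 FPKM. FPKM are fragments scaled to transcript length in kilobases and to the mapped fragments of the library. *CKM*, the muscle creatine kinase, was nevertheless listed at 0 in 7 libraries and *DES*, the muscle intermediate filament gene, in 5, so a 0 in these files can be a transcript that was not assembled. *MB* was not matched to a gene of the annotation. Each library held 17598 to 19871 spliced chains.

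Antisense transcripts are made from the strand opposite to a gene. They can be long non-coding RNAs, or the ends of a neighbouring gene that runs into the gene. Neighbours that start close together on opposite strands share a promoter region and overlap head to head at their 5′ ends, while convergent genes overlap tail to tail at their 3′ ends. Introns almost always begin with GT and end with AG on the strand that is transcribed, so an intron shows from which strand its RNA came, and read on the wrong strand such an intron begins with CT and ends with AC.

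The splice sites therefore come first. Below, on Sscrofa11.1, are the 10 bases on each side of the first exon-intron border (donor) and of the following intron-exon border (acceptor), 5′ to 3′ on the strand the assembly gave to the chain, with the first and the last pair of intron bases in capitals. The first set shows chains assembled in all 12 libraries, at *TOPORS* (chr10:33865650-33866417, - strand, 2 exons), *IGHMBP2* (chr2:4193907-4206157, + strand, 7 exons) and *ZBTB26* (chr1:263846685-263852514, + strand, 2 exons), followed by the chain at *GAS8* (chr6:87165-90208, + strand, 4 exons), assembled in 11.
TOPORS donor, chr10:33866184-33866203, - strand: ttattcagcgGTaggccccg
TOPORS acceptor, chr10:33865858-33865877, - strand: catttttcAGttgctcctcg
IGHMBP2 donor, chr2:4194690-4194709, + strand: cccgggacagGTgagactag
IGHMBP2 acceptor, chr2:4198095-4198114, + strand: gttccctcAGctcccccgtg
ZBTB26 donor, chr1:263847200-263847219, + strand: taaagcctcgGTaagtccct
ZBTB26 acceptor, chr1:263852161-263852180, + strand: tgttcctcAGatggagtagg
GAS8 donor, chr6:87203-87222, + strand: gcccccgcagGTacccgcgc
GAS8 acceptor, chr6:87814-87833, + strand: cgtggcctAGggcagaggca

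The second set shows chains whose splice sites go against the strand they carry in the files, at *CIB1* (chr7:55794636-55796015, labelled + strand), *PET100* (chr2:71519562-71520932, labelled + strand) and *TUBA4A* (chr15:121291440-121293966, labelled + strand), each with 2 exons. The bases are given first on the labelled strand and then for the same intron on the other strand, which is that of the sense gene.
CIB1 donor, labelled, chr7:55795080-55795099, + strand: tttaaaggagCTaaacaaga
CIB1 acceptor, labelled, chr7:55795766-55795785, + strand: gtggtcatACctggcaaagt
CIB1 donor, other, chr7:55795766-55795785, - strand: actttgccagGTatgaccac
CIB1 acceptor, other, chr7:55795080-55795099, - strand: tcttgtttAGctcctttaaa
PET100 donor, labelled, chr2:71520086-71520105, + strand: agatggtcatCTggaagggc
PET100 acceptor, labelled, chr2:71520765-71520784, + strand: gctcactgACccgaaacacc
PET100 donor, other, chr2:71520765-71520784, - strand: ggtgtttcggGTcagtgagc
PET100 acceptor, other, chr2:71520086-71520105, - strand: gcccttccAGatgaccatct
TUBA4A donor, labelled, chr15:121292117-121292136, + strand: tgcattcacgCTgaaggata
TUBA4A acceptor, labelled, chr15:121293903-121293922, + strand: ccgcactcACcatggtgagt
TUBA4A donor, other, chr15:121293903-121293922, - strand: actcaccatgGTgagtgcgg
TUBA4A acceptor, other, chr15:121292117-121292136, - strand: tatccttcAGcgtgaatgca

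Of the 513 introns of the 301 chains, 424 (82.7%) read GT-AG on the labelled strand, 17 (3.31%) GC-AG and 6 (1.17%) AT-AC, the other motifs in normal use. CT-AC was read in 51 introns (9.94%). Among 93330 annotated introns that the libraries used, 99.0% read GT-AG and 0 read CT-AC. By chain, 239 (79.4%) had introns of the 3 normal motifs only and are called canonical. In 47 (15.6%) at least 1 intron was CT-AC, so that it was canonical on the strand of the sense gene, and these are called sense-reading. The other 15 chains (4.98%) had another motif.

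Most sense-reading chains held an intron of the sense gene itself. In 41 of the 47, an intron was identical in position to an annotated intron of the sense gene, against 0 of the 239 canonical chains. Their exons also lay mostly within the sense gene, with a median of 67.5% of their bases in partner exons, against 15.4% in the canonical chains. Of the 47, 35 had another gene on their labelled strand within 5000 bases upstream, against 51 of the 239 canonical chains. The strand setting of the libraries is not stated in the paper or the labels. Every spliced transcript carries a strand in the files, while 54.2% to 68.3% of the single-exon transcripts of a library carry none. If the reads carry no strand, that of a spliced transcript comes from its splice sites. Reads in an overlap could then not be given to either strand. This was not tested. The canonical chains are those whose strand and splice motif go together. Where the motif set the strand, this agreement was fixed in advance and is no separate evidence for the strand. Values are given for both kinds.

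The partners were mostly protein-coding genes. Of the 301 chains, 233 had a protein-coding main partner (153 genes), 58 a long non-coding RNA gene (29 genes), 8 a pseudogene and 2 a microRNA gene. In 124 chains (41.2%) the whole chain lay inside the span of its partner, 89 (29.6%) were tail to tail, 74 (24.6%) head to head, and 14 (4.65%) spanned the partner. The shared bases lay mainly in coding sequence in 114 chains, in the 3′ UTR in 66 and in the 5′ UTR in 48. Among the head-to-head chains the 5′ UTR was the main site in 36 of 74, and among the tail-to-tail chains the 3′ UTR was in 38 of 89. Of the 47 sense-reading chains, 26 lay inside the partner and 4 were head to head, while 68 of the 239 canonical chains were head to head.

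The antisense chains had few exons. Most had 2 exons (196 of 301), and the largest number was 12. Averaged over libraries, they had 2.82 ± 0.142 exons (SD, n = 12), against 3.92 ± 0.269 in spliced intergenic chains, which overlap no annotated gene, and 10.2 ± 0.211 in chains identical to an annotated transcript. Antisense chains had fewer exons than either class in 12 of 12 libraries (exact sign-flip permutation test over the libraries, two-sided, adjusted p = 0.000732 over 9 such tests, for each). The smallest p this test allows here is 0.000488. Against spliced chains inside 1 intron they had more exons, by 0.606 ± 0.177, in 12 of 12 libraries (adjusted p = 0.000732). The difference in log2 spliced length was -0.242 ± 0.191 against intergenic and -1.21 ± 0.206 against annotated chains (same test, adjusted p = 0.00275 and 0.000732). It was 0.102 ± 0.379 against chains inside 1 intron (same test, adjusted p = 0.385).

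Their level lay between that of intergenic and that of annotated chains. The median antisense chain stood at 0.779 to 1.96 FPKM over the 12 libraries, the median intergenic chain at 0.487 to 0.716 FPKM, and the median annotated chain at 2.32 to 3.21 FPKM. On the log2 scale the antisense median was above the intergenic one by 1.16 ± 0.380 and below the annotated one by 1.01 ± 0.420, in 12 of 12 libraries each (exact sign-flip permutation test, adjusted p = 0.000732). Without the sense-reading chains the first difference was 0.703 (exact p = 0.000488). The median level over chains and libraries was 4.66 FPKM in sense-reading and 1.02 FPKM in canonical chains.

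Most chains were seen in a single animal. Of the 301, 182 (60.5%) were assembled in 1 library, 119 in at least 2, 37 (12.3%) in at least 6 and 5 (1.66%) in all 12. Among spliced intergenic chains 66.5% were in 1 library and 1.30% in all 12, and 19.4% of annotated chains were in 1 library and 21.0% in all 12. Joined by overlapping exons, 85 of the 190 antisense loci were in 1 library and 12 in all 12. Of the 119 chains in at least 2 libraries, 98 were in both groups, 12 in Tough libraries only and 9 in Tender libraries only. All 5 chains in all 12 libraries were canonical and head to head. Of the 74 head-to-head chains 17 (23.0%) were in at least 6 libraries, as were 4 of the 14 spanning chains, 8 of the 124 chains inside their partner and 8 of the 89 tail-to-tail chains.

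**Figure D1:**
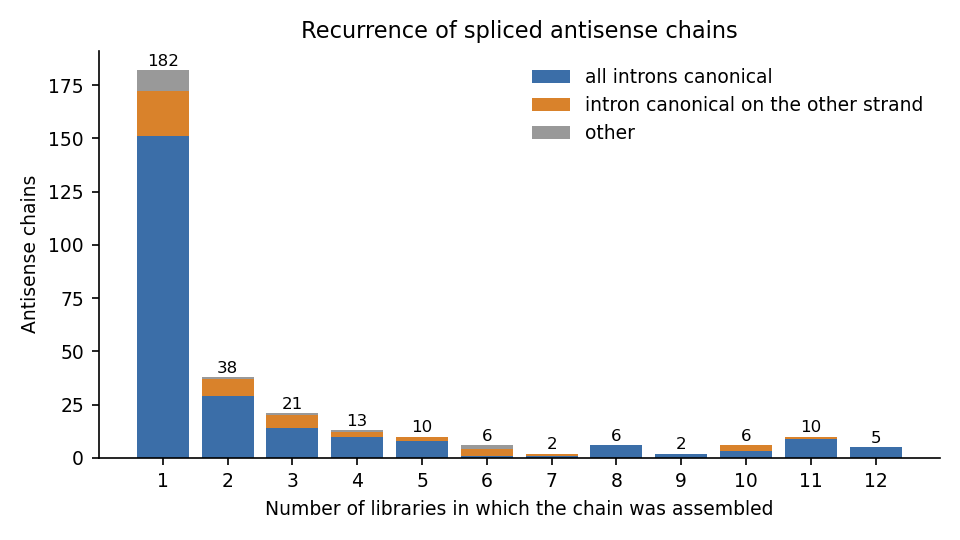
Number of antisense chains (vertical axis) by the number of libraries in which they were assembled (horizontal axis), coloured by the motif of their introns. The bar at 1 library holds 182 of 301 chains, and the 5 chains in all 12 libraries have canonical introns only.

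The number of antisense chains did not separate the groups. A Tough library held 57 to 73 chains (mean 64.5 ± 6.57, SD, n = 6) and a Tender library 55 to 86 (63.7 ± 11.6). The ranges overlapped, and the means differed by 0.833 chains (exact permutation test, two-sided, p = 0.920, adjusted p = 0.920 over 5 counts). As a percent of the library's spliced chains, the antisense chains were 0.348 ± 0.0324% for Tough and 0.348 ± 0.0453% for Tender (p = 0.998 by the same exact test). Tender 4 held the most antisense chains (86) and also the most spliced chains of all kinds (19871), and without it the Tough mean was 5.30 chains above the Tender mean (exact permutation test, p = 0.175). Canonical chains numbered 51.2 ± 5.67 per Tough library and 48.7 ± 9.50 per Tender library (exact p = 0.639). Sense-reading chains numbered 9 to 12 in Tough libraries (10.2 ± 1.33) and 9 to 16 in Tender libraries (13 ± 2.76), with an exact permutation p of 0.0823 and an adjusted p of 0.411.

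**Figure D2:**
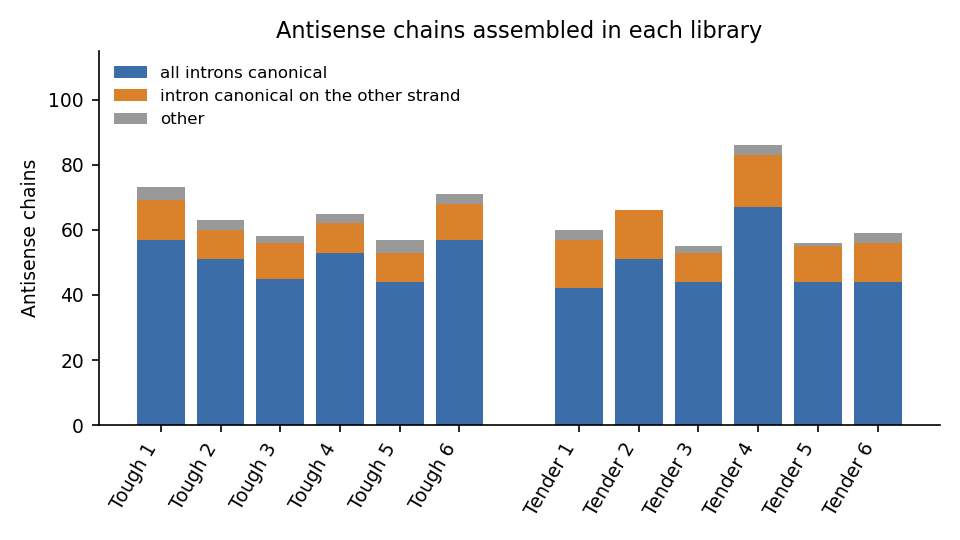
Antisense chains (vertical axis) in each of the 6 Tough and 6 Tender libraries, stacked by intron motif. The Tough libraries hold 57 to 73 chains and the Tender libraries 55 to 86, with Tender 4 the highest.

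One of the 5 chains in all 12 libraries lay head to head with *TOPORS*, which encodes a ubiquitin and SUMO ligase. It was at 20.3 to 28.3 FPKM in the Tough libraries (median 23.0) and at 20.2 to 24.1 FPKM in the Tender libraries (median 22.6). The groups overlapped. *TOPORS* itself was at 0.795 to 3.38 FPKM over the 12 libraries, below the antisense chain in each. A second chain at the same locus used another splice site, was in 11 libraries and stood at 8.42 to 14.1 FPKM where assembled. The first chain shares 46 bases with *TOPORS* exons, 43 of them in the 5′ UTR. The sense values divide by all exon bases of the gene, so that they lie below the FPKM of a transcript that covers only some of them.

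At *IGHMBP2*, which encodes an RNA and DNA helicase, a chain of 7 exons started head to head with the gene and stood at 5.98 to 9.91 FPKM in the Tough loins (median 9.19) and at 4.06 to 12.1 FPKM in the Tender loins (median 8.27). The Tough range lay within the Tender range. *IGHMBP2* was at 1.91 to 3.95 FPKM. The longest open reading frame of the chain, from an ATG to a stop on its own strand, had 209 codons. In the human genome, the head-to-head neighbour of *IGHMBP2* is *MRPL21*, a mitochondrial ribosomal protein gene, and the annotation used here lists no gene of that symbol on a chromosome. The chain was not compared with the human gene.

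Other head-to-head chains stood beside genes whose human neighbours are likewise not on a chromosome in this annotation. At *PTRH2*, a mitochondrial peptidyl-tRNA hydrolase gene, a chain of 12 exons (chr12:35933140-36065027, + strand) was in 9 libraries at 6.38 to 11.3 FPKM. It had an open reading frame of 406 codons and ended 240 bases before *MIR21* on the same strand. In the human genome *VMP1*, a gene of autophagosome formation, has this place between *PTRH2* and *MIR21*. At *ELP5*, an Elongator subunit gene, a chain of 8 exons (chr12:52599165-52606144, - strand) was in 10 libraries at 37.4 to 65.9 FPKM, was listed at 0 in Tough 3 and Tough 5, and had an open reading frame of 244 codons. The human neighbour there is *CTDNEP1*, a nuclear envelope phosphatase gene. The chain shared only 5 bases with *ELP5* exons and met the rule in 3 of its 10 libraries, in which its outer end reached the gene. At *SERINC4*, a serine incorporator family gene, a chain of 4 exons (chr1:127758557-127763411, - strand) was in 11 libraries at 4.70 to 13 FPKM, with an open reading frame of 121 codons, and lay 2349 bases after *SERF2* on the same strand. The human neighbour there is *HYPK*.

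Open reading frames of at least 100 codons were found on both strands. Among the 27 canonical chains in at least 6 libraries, 15 had one on their own strand and 16 had one on the reverse complement. On the own strand and the reverse complement, in this order, the longest had 209 and 144 codons at *IGHMBP2* and 406 and 81 at *PTRH2*. They had 244 and 269 codons at *ELP5*, and 121 and 105 at *SERINC4*.

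The chain at *GAS8*, which encodes a subunit of the dynein regulatory complex of cilia, lay wholly in exons of the gene, with 820 of its 1016 bases in the 3′ UTR. It stood at 9.55 to 26.8 FPKM in the Tough libraries and at 12.7 to 27.1 FPKM in 5 Tender libraries, and was listed at 0 in Tender 6. *GAS8* was at 0.148 to 0.496 FPKM in 11 libraries and listed at 0 in Tough 4. With all 5 chains of the locus summed, antisense FPKM was 13.3 to 34.4 over the 12 libraries, with 20.1 ± 7.75 as the Tough and 25.8 ± 4.73 as the Tender mean (SD, n = 6). In limma over all spliced loci the log2 difference was -0.41 (SE 0.22, adjusted p = 1.00).

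At *ZBTB26*, a zinc finger transcription factor gene, the antisense chain stood at 0.813 to 2.97 FPKM in the Tough loins (median 1.44) and at 1.01 to 1.51 FPKM in the Tender loins (median 1.19), and the ranges overlapped. *ZBTB26* was at 0.256 to 0.622 FPKM. Of the 869 bases of the chain 454 lay in *ZBTB26* exons, mostly coding, and the chain also met exons of *ZBTB6*. *RABGAP1* starts 4987 bases after its end on the same strand. A pair of chains at *LOC110256827* (chr14:140335848-140357366, + strand, 5 and 4 exons) was also in all 12 libraries, at 0.909 to 3.11 and 1.36 to 4.24 FPKM, and the sense gene was listed at 0 in each library.

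The chains just short of all 12 libraries covered genes of several roles. In 11 libraries were chains at *PIR*, an iron-binding transcriptional coregulator gene (0.812 to 2.62 FPKM where assembled), and *TMEM167B*, a membrane protein gene (0.350 to 1.13 FPKM). A chain of 2 exons that spanned *MIR378-1* was in 11 libraries, and met the rule in 2 of them. At *COL24A1*, a fibrillar collagen gene listed at 0 in all 12 libraries, 7 antisense chains together stood at 1.55 to 3.92 FPKM. At *GPAM*, which starts triacylglycerol synthesis, a head-to-head chain was in 8 libraries at 0.986 to 5.49 FPKM. At *HOXD1*, a positional homeobox gene, a chain was in 8 libraries at 1.03 to 2.82 FPKM.

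The most abundant recurrent locus overlapped *LOC102163816*, a long non-coding RNA gene on chr2. Its 8 chains on the - strand were summed to 94.0 to 368.8 FPKM in 11 libraries and were listed at 0 in Tender 2. No chain there was in more than 5 libraries. Each chain lay wholly in exons of *LOC102163816*, with 6194 to 7070 shared bases. The sense gene was listed at 0 in 9 libraries and was at 0.138, 0.195 and 34.7 FPKM in Tough 3, Tough 4 and Tender 1. One further chain, at *TTN* (chr15:84226951-84228053, + strand), held 1974 FPKM in Tough 4 alone and was not assembled elsewhere. Of its 935 bases 858 lay in the 3′ UTR of *TTN*, the giant sarcomere protein gene, which was at 24.6 to 98.5 FPKM.

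**Figure D3:**
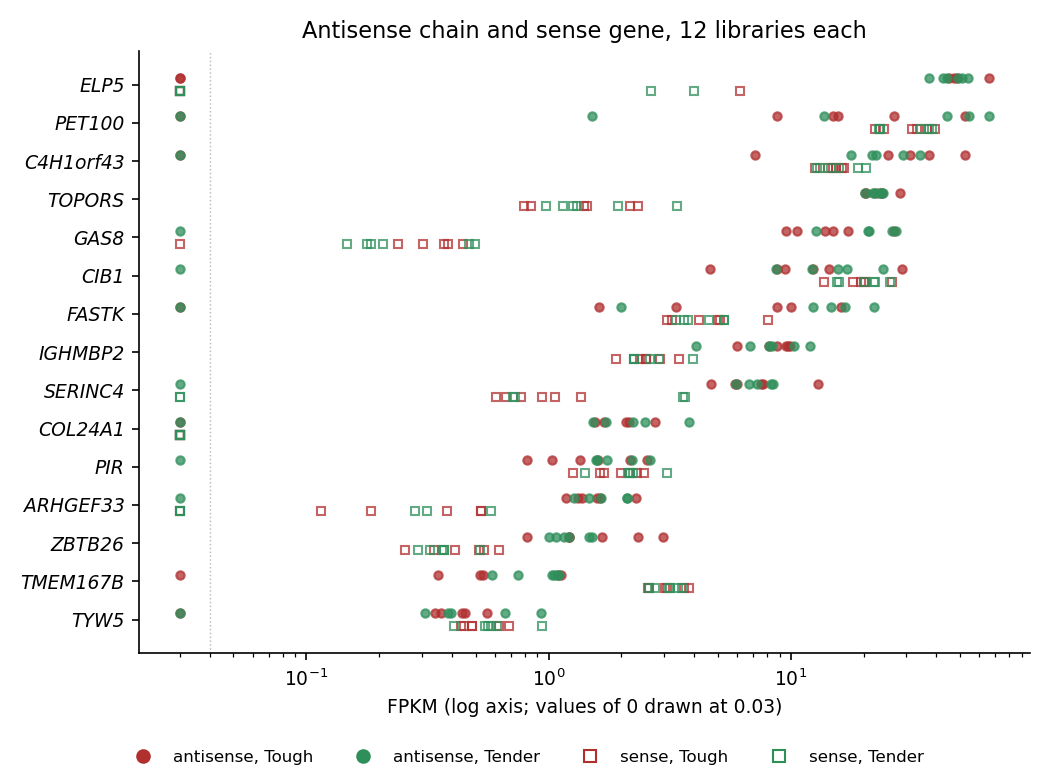
FPKM on a log axis for the antisense chain (filled circles) and its sense gene (open squares) in each Tough and Tender library, for named genes whose chain is in at least 10 libraries. Values of 0 are drawn at 0.03. Sense values divide by all exon bases of the gene, and chain values do not. At *TOPORS* and *GAS8* the chain lies above the gene in every library that has both, at *TMEM167B* it lies below, and at *PET100* and *CIB1* the values overlap.

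Among the sense-reading chains, 4 were in at least 9 libraries. At *PET100*, a cytochrome c oxidase assembly gene, the chain was in 10 libraries at 1.51 to 66.1 FPKM. At *CIB1*, a calcium and integrin binding protein gene, it was in 11 libraries at 4.66 to 28.7 FPKM. At *FASTK*, a mitochondrial RNA regulator gene, it was in 10 libraries at 1.61 to 22.1 FPKM, and at *C4H1orf43* it was in 10 libraries at 7.11 to 52.5 FPKM.

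No antisense chain was called between the groups. limma on log2(FPKM + 0.5) tested the 76 of 301 chains whose mean over the 12 libraries was above 0.5 FPKM, within a fit of all 18720 spliced chains above that level, and 225 chains were too low. A call needed a p up to 0.05, a Benjamini-Hochberg adjusted p up to 0.10 and a 1.5-fold difference, and 0 of the 76 met it, as did 0 (0%) of all spliced chains. Before adjustment 3 of the 76 (3.95%) had p up to 0.05, against 3.35% of all spliced chains, 1 higher for Tough (background 1.45%) and 2 higher for Tender (background 1.9%). By the exact Wilcoxon test 0 of the 76 did, against 1.8% of all spliced chains. The smallest adjusted p of limma was 0.705. The log2 difference was above 0 in 42 of the 76 chains, with a median of 0.06 against -0.04 over all spliced chains. The groups did not overlap in 0 of the 76, and in 0.0855% of all spliced chains. Of the 76 chains 18 were in 1 library only, so a chain can pass the filter through a single animal.

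All 3 chains with p up to 0.05 before adjustment were sense-reading. At *TUBA4A*, an alpha-tubulin gene, every Tough library listed the chain at 0, and so did Tender 2 and Tender 6. It was at 164.4, 228.2, 70.8 and 50.6 FPKM in Tender 1, 3, 4 and 5. The log2 difference was -5.17 (SE 1.51, limma adjusted p = 0.705). The sense gene was listed at 0 in the same 8 libraries and at 14.2, 18.2, 10.1 and 18.3 FPKM in the 4 others. The chain and the sense gene were thus listed together or not at all. The intron of the chain reads GT-AG on the strand of *TUBA4A*, so this does not show RNA from both strands.

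At *ITGA7*, the laminin-binding integrin of muscle fibres, the chain was at 18.9, 30.0 and 28.3 FPKM in Tough 2, 4 and 5 and was listed at 0 in the other 9 libraries (log2 difference 2.84, SE 1.17, limma adjusted p = 0.705). Sense *ITGA7* was at 17.2 to 43.1 FPKM in the 12 libraries. At *MYPOP*, a Myb-related repressor gene, the chain was at 6.04, 3.95 and 3.24 FPKM in Tender 1, 2 and 6 and listed at 0 elsewhere (log2 difference -1.63, SE 0.71, limma adjusted p = 0.705). Sense *MYPOP* was at 1.49 to 6.51 FPKM. These fold changes set values against zeros that may be transcripts not assembled, so their size depends on the 0.5 FPKM that was added.

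The next chains by p were also listed at 0 in some libraries. On the Tough side were *LOC102163816* (log2 difference 3.75, SE 2.06), *CENPX*, a centromere gene (1.19, SE 0.74), and *LY6E* (1.14, SE 0.71). On the Tender side were another chain of *LOC102163816* (-3.25, SE 1.92), *OST4*, an oligosaccharyltransferase subunit gene (-1.35, SE 0.81), and *ELP5* (-2.08, SE 1.28). For all 6 the adjusted p of limma was 0.705. The pair of *LOC102163816* chains pointed opposite ways at 1 locus, whose summed FPKM ranged from 94.0 to 368.8 in Tough and from 0 to 353 in Tender libraries, with overlap. For *ELP5* the log2 difference rests on the zeros of Tough 3 and Tough 5, since the 4 other Tough libraries were at 45.1 to 65.9 FPKM and the 6 Tender libraries at 37.4 to 54.0 FPKM.

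For the chains in all 12 libraries the difference between the groups was below its SE. In limma the log2 difference was 0.03 (SE 0.15) at *TOPORS*, 0.12 (SE 0.26) at *IGHMBP2*, 0.27 (SE 0.29) at *ZBTB26*, and -0.12 (SE 0.29) and 0.06 (SE 0.29) for the pair at *LOC110256827*, with adjusted p from 0.737 to 0.999.

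The sense partner genes were not called either. Of 197 partner genes, 95 had a mean above 0.5 FPKM, and 0 of them were called, as were 0 (0%) of all 9017 genes tested. Before adjustment 6 of the 95 (6.32%) had p up to 0.05, against 2.47% of all genes, 1 higher for Tough (background 0.71%) and 5 higher for Tender (background 1.76%). By the exact Wilcoxon test 4 of the 95 did, against 2.12% of all genes. The groups did not overlap in 0 of the 95, and in 0.0998% of all genes.

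The partner with the smallest p on the Tough side was *KLHL33*, a kelch family gene, at 3.76 to 17.0 FPKM (median 11.6) in Tough and at 3.52 to 6.38 FPKM (median 4.52) in Tender loins. All but 1 Tough library, Tough 4, lay above every Tender library (log2 difference 1.07, SE 0.31, limma adjusted p = 1.00). Its antisense chain was in 1 library at 0.558 FPKM. Next came *DDB2*, a DNA damage recognition gene (0.35, SE 0.17), *GMPR*, a purine nucleotide enzyme gene (0.17, SE 0.11), *UBE2Z*, a ubiquitin-conjugating enzyme gene (0.81, SE 0.56), and *MAFA*, a transcription factor gene (0.34, SE 0.24), each with an adjusted p of 1.00 in limma. For *UBE2Z* the direction rests on zeros in Tender 1 and Tender 3, since the Tough libraries were at 2.08 to 3.37 FPKM and the 4 other Tender libraries at 2.35 to 3.96 FPKM.

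On the Tender side the sense gene of *TUBA4A* had the smallest p (log2 difference -3.29, SE 0.95, limma adjusted p = 1.00). *C14H10orf71* was at 66.4 to 98.8 FPKM in Tough and at 75.1 to 135.9 FPKM in Tender loins, with overlap (-0.53, SE 0.17, limma adjusted p = 1.00). *METTL21C*, a muscle lysine methyltransferase gene, was at 0.267 to 1.69 FPKM and at 1.04 to 11 FPKM in the same order (-1.45, SE 0.49, limma adjusted p = 1.00). Its locus had 6 antisense chains, which were listed at 0 in Tough 2, 4 and 5 and in Tender 1 and summed to at most 1.02 FPKM elsewhere. *DUSP8*, a phosphatase of stress kinases, differed by -0.48 (SE 0.20), and *HOXC9*, a positional homeobox gene, by -2.13 (SE 0.92), both with an adjusted p of 1.00 in limma. *HOXC9* was listed at 0 in 3 Tough libraries, and per exon base its difference was -0.12. The antisense chain head to head with *HOXC9* was in 1 Tough and 3 Tender libraries, at 4.06 FPKM and at 6.65 to 13.1 FPKM.

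**Figure D4:**
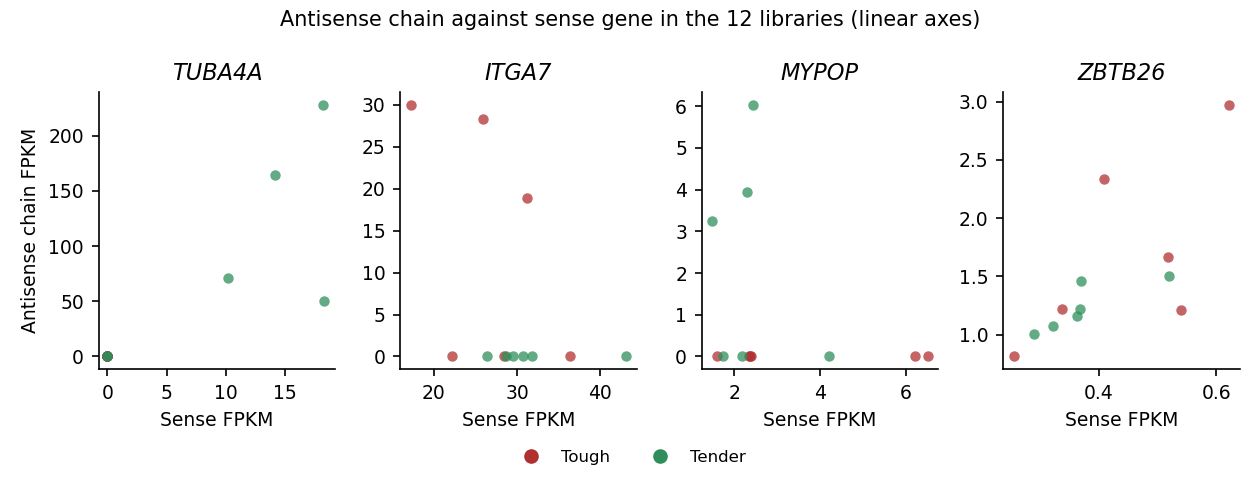
Antisense chain FPKM (vertical axis) against sense gene FPKM (horizontal axis) in the 12 libraries, on linear axes, with Tough libraries in red and Tender libraries in green. At *TUBA4A* 8 libraries sit at 0 on both axes and the 4 others are Tender, at *ITGA7* and *MYPOP* the chain is listed at 0 in 9 libraries, and at *ZBTB26* the chain is higher where the gene is higher in all 6 Tender libraries.

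Within a library, antisense and sense levels were related across pairs in a loose way. Across the 31 to 45 pairs of a library with both values, Spearman's coefficient of chain against partner FPKM was 0.327 to 0.584 in the Tough libraries and 0.197 to 0.628 in the Tender libraries. These are correlations across pairs, which share the library and whose exons overlap, and are given as a description. The mean coefficient differed between the groups by 0.0680 (exact permutation test over libraries, p = 0.424). Without the sense-reading chains it was 0.106 to 0.542 (median 0.284) for Tough and -0.0562 to 0.489 (median 0.150) for Tender, with Tender 3 and Tender 6 below 0. In pairs with under 20% of the chain's bases in partner exons it was 0.118 to 0.518 (median 0.288) for Tough and -0.243 to 0.629 (median 0.269) for Tender, so it was not above 0 in every library.

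The partner was often not listed where the chain was. Over all chains and libraries there were 769 values of a chain, and in 309 (40.2%) the partner gene was listed at 0 in that library. This was so for 290 of 599 values (48.4%) of canonical chains and for 5 of 139 (3.6%) of sense-reading chains. Genes at 0 were common in these files. Of the 189 main partner genes 77 (40.7%) were listed in all 12 libraries, against 8969 (31.8%) of all 28207 annotated genes. In the 460 values with both, the chain exceeded the gene in 263 (57.2%). The share was 57.3% in canonical and 52.2% in sense-reading chains. Per library, the partner was at 0 for 40.4 ± 4.21% of the chains for Tough and 39.2 ± 6.77% for Tender (SD, n = 6, exact permutation p = 0.714).

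**Figure D5:**
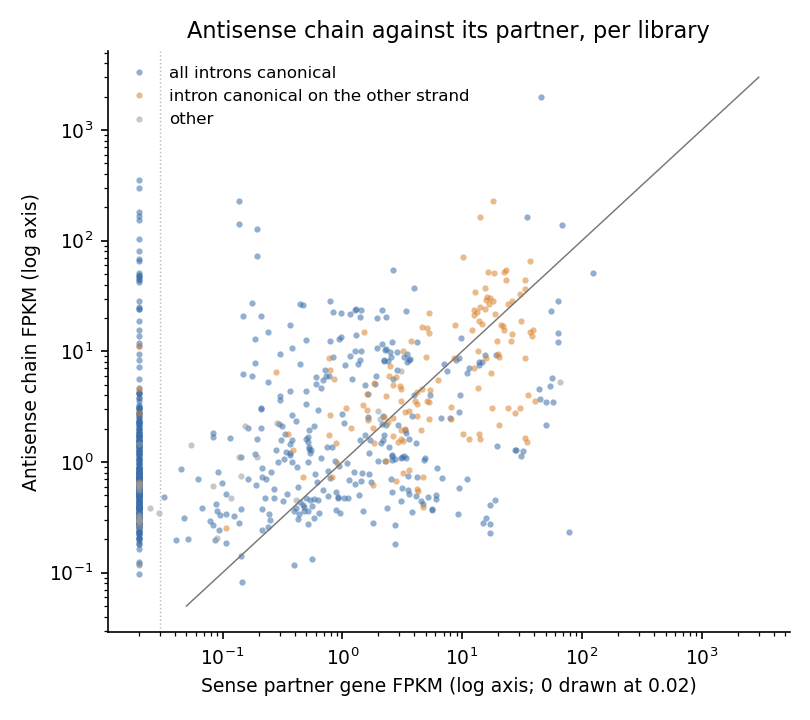
Antisense chain FPKM against partner gene FPKM for each chain and library, on log axes, coloured by intron motif, with the line of equal values. Partners listed at 0 are drawn at 0.02, and these are 309 of 769 points, of which 5 belong to sense-reading chains. Partner values divide by all exon bases of the gene, and chain values do not.

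Over the animals, 4 pairs could be compared in all 12 libraries, which gave 12 relations with the groups pooled and apart. For *ZBTB26*, Pearson's r of log2(FPKM + 0.5) was 0.74 (100000 permutations, p = 0.00487, adjusted p = 0.0583 over the 12 relations) and Spearman's coefficient 0.80 (p = 0.00269, adjusted p = 0.0167). Without the 2 libraries farthest from the median of the antisense level, r was 0.78. In the Tender group r was 0.84 and Spearman's coefficient 1.00 (n = 6, exact permutation, p = 0.00972 and 0.00278, adjusted p = 0.0583 and 0.0167). In the Tough group r was 0.70 and Spearman's coefficient 0.60 (n = 6, exact permutation, p = 0.132 and 0.242), and r was -0.06 without the 2 farthest libraries, so there the relation rests on those libraries. Of this chain's bases 52.2% lie in exons of the sense gene, and what this overlap contributes to the relation was not tested. Without Tough 2, 3, 4 or 5 or Tender 1 in turn, with 8 relations then compared, the adjusted p of the pooled r was under 0.05.

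No relation of the other pairs had an adjusted p under 0.05. *ZBTB6* against the same chain gave r = 0.02 and a Spearman coefficient of 0.20 (permutation p = 0.940 and 0.543). *IGHMBP2* gave r = -0.30 and a Spearman coefficient of 0.11 (p = 0.334 and 0.734 over 12 libraries by permutation), with r = 0.82 in the Tough and -0.81 in the Tender group (exact permutation, n = 6, p = 0.0569 and 0.0667, adjusted p = 0.2 for both). Without Tender 2, which had the lowest chain and the highest gene value, the pooled r of *IGHMBP2* was 0.40. *TOPORS* gave r = -0.35 and a Spearman coefficient of -0.26 (permutation p = 0.272 and 0.418). With chains in at least 9 libraries, a limit set once the values were known, there were 14 pairs and 42 relations, with pooled r from -0.64 to 0.74 and a median of -0.06. Of the 42, 0 passed an adjusted p of 0.05 for Pearson's r and 4 had p up to 0.05 before adjustment. For Spearman's coefficient the smallest adjusted permutation p over the 42 was 0.0583, at *ZBTB26*, both pooled and in the Tender group.

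The gene lists that were looked at held 3 of the partners. In lists of genes drawn up for loin muscle, 1 of 56 annotated sarcomere and Z-disc genes was a partner (*TTN*), 1 of 28 HOX and positional genes (*HOXC9*) and 1 of 30 clock and immediate early genes (*FOSB*, whose chain stood at 0.242 FPKM in 1 Tough library). None of the 32 excitation-contraction genes, 31 glycolysis and glycogen genes, 36 mitochondrial energy genes, 35 proteolysis and autophagy genes, 37 matrix and collagen genes and 29 muscle transcription and growth genes was one. Neither was any listed marker of adipocytes (8 genes), endothelium (8), macrophages and lymphocytes (10), smooth muscle and pericytes (8), Schwann cells (6) or red blood cells (5). Over all 28207 annotated genes 0.698% were partners, and 0.813% of the protein-coding genes, so lists of this size would hold few in any case. *HOXD1*, *COL24A1*, *ITGA7* and *METTL21C* are partners outside these lists, which do not hold every gene of a kind. Of the 3 partners in lists 0 were called. The summed FPKM of the 4 measured red blood cell markers was 124.1 to 206.9 in the Tough and 238.7 to 353.1 in the Tender loins, with no overlap. In every other list the summed ranges of the groups overlapped, as for adipocytes at 64.1 to 120.1 in Tough and 75.7 to 130.7 in Tender loins. Among all single genes tested, the groups did not overlap in 0.0998%. The part of the red blood cell markers in the differences above was not tested.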

How the data were processed

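RNA of the loin was sequenced from 12 animals, 1 library each, as pairs of 76 bases by the labels. The authors trimmed reads with Trim Galore after FastQC, mapped them to Sscrofa11.1 (TopHat 2.1.0) and ran Cufflinks 2.2.1 on every library separately. The deposited files give the exons, strand and FPKM of each transcript, as the authors computed them, and Cufflinks' score, a deposited whole number that was not used. They also give a coverage, an estimate of read depth, and a confidence interval of each FPKM, which entered no test. Per library, median coverage was 4.85 to 14.6 in antisense, 4.12 to 5.24 in intergenic and 20.4 to 23.9 in annotated chains. The files hold no read counts. Transcripts without a strand, 54.2% to 68.3% of the single-exon ones, entered no chain.

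Exons were compared with the NCBI annotation of the same build (Release 106). A chain's level is the FPKM of its transcripts summed, and 0 where it has none. Gene FPKM is the sum of FPKM times length over transcripts of the gene's strand with at least 50% of their bases in its exons, over its exonic length. The test was limma 3.58.1 in R 4.3.3, with lmFit and trended eBayes, of log2(FPKM + 0.5) with the group as the only factor, for features with a mean above 0.5 FPKM, with Benjamini-Hochberg adjustment over each whole table. It was first checked on simulated data modelled on chains in at least 6 libraries. Of the 76 antisense chains tested 28 are such chains, so the check does not cover the others. Other tests were exact permutations over the 924 ways to form 2 groups of 6, the 4096 sign flips of 12 libraries, the 720 pairings of 6, or 100000 resamples for 12, all two-sided. Libraries are separate animals. Bases at splice sites and the open reading frames were read from the RefSeq genome of the same build. Named chains are those in all 12 libraries, the 5 of smallest p in each direction and the 5 with the largest pooled r. Named partners are theirs, the 5 with a gene symbol of smallest p in each direction and those in gene lists. One chain that this rule names is not reported here. Chains in 6 to 11 libraries and those at *TTN*, and the split by splice motif, were chosen after their values were seen. The members and lists were chosen with earlier results of these data known. Other steps used scipy 1.17.1, numpy 2.4.6, pysam 0.24.0, pandas 2.3.3 and matplotlib 3.10.9 under Python 3.11.15. No lane or batch is named by the labels.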

Additional observations from a re-analysis of the deposited data

Results flagged for a closer look

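In each group of 6 the highest and the lowest library were compared with the others by Dixon's criterion, for the library counts and for the named chains and genes. Chance alone marks about 1 in 20 groups, and 5 of 62 were marked. Tender 4 stood apart with 86 antisense chains and with 67 canonical chains, and also had the most spliced chains. In summed antisense FPKM Tough 4 stood apart at 2547, of which the *TTN* chain was 1974. At *LOC102163816* one chain was at 300.4 FPKM in Tender 6 and 0 in the other Tender libraries, and another was at 25.1 FPKM in Tough 1 and 0 in the other Tough libraries.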

How the results depend on the processing

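There were 196 antisense chains when transcripts under 0.5 FPKM were left out and 190 when chains were merged by locus. The difference in chains per library was -0.833 (exact permutation p = 0.823) above 0.5 FPKM, ran from -0.900 to 5.30 when each library was left out, the upper end without Tender 4, and was 3.6 without both Tender 4 and Tough 1. No alternative called one of these chains or partner genes. Chains with p up to 0.05 before adjustment numbered 0 by the exact Wilcoxon test, 1 to 4 when each library was left out (1 without Tough 4) and 3 by the other fits of all chains, and 4 loci did when chains were merged by locus. Partner genes numbered 4 to 9 over all alternatives. Scaling moved the direction of all genes with such a p from 64 of 223 higher in Tough to 134 of 277 with median-of-ratios scaling and 143 of 290 with quantile normalization, and of partner genes from 1 of 6 to 2 of 6 and 3 of 7. Against spliced chains inside 1 intron in place of intergenic ones, the log2 length difference was 0.10 (exact p = 0.385) and the exon difference 0.606. The cause was not tested.

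Relations with an adjusted Pearson p up to 0.05 numbered 0 as reported, 1 with 0.1 FPKM added, 1 with median-of-ratios scaling, and 0 to 2 when each library was left out. The pooled r of *ZBTB26* was 0.59 to 0.85 over the left-out libraries, with an adjusted p up to 0.05 without Tough 2, 3, 4 or 5 or Tender 1 in turn, where 8 relations in place of 12 were compared. The r of its chain with *ZBTB6* was -0.13 with median-of-ratios scaling and -0.041 (without Tender 3) to 0.19 with libraries left out, and was below 0 without Tough 1 (-0.019), Tough 6 (-0.015), Tender 2 (-0.026), Tender 4 (-0.037) and Tender 6 (-0.00061). That of *IGHMBP2* was -0.57 to 0.40. With each library left out, the log2 difference of the chains in all 12 libraries was -0.029 (without Tough 4) to 0.065 at *TOPORS*, -0.059 (without Tender 2) to 0.23 at *IGHMBP2*, -0.27 to 0.0011 (without Tough 3) for the chain of 5 exons at *LOC110256827*, and -0.10 (without Tough 4) to 0.17 for that of 4 exons, which was also -0.0038 without Tough 1.

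Tough and Tender animals share replicate numbers, and same-numbered animals did not deviate together (r from -0.36 to -0.006 over 3735 chains, 0 of 6 pairs over 0.1, and 0 best with their own number). With the replicate number as a block, 3 chains and 5 partner genes had p up to 0.05, and 0 were called. Alternatives chosen after the data were seen gave 2 chains with such a p from only those transcripts that meet the rule, and 7 partner genes with strandless transcripts included. Of those 2 chains 0 were higher in Tough, so the *ITGA7* chain was not among them. With no read counts, a chain listed at 0 may have been missed by the assembly.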
